A study of Mus musculus with 12 samples.

Results

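The genes described here are 10 genes of the microvillus, the finger-like protrusion that covers the apical face of intestinal epithelial cells. They are Vil1, Espn, Eps8, Ezr, Myo1a, Cdhr2, Cdhr5, Ush1c, Myo7b and Myo15b, and their rows were taken by symbol from the 55414 genes of the count table, with no minimum count. Each of the 10 was found once, and all 10 were among the 13057 genes tested. RNA-seq counts were available for 12 libraries in 4 groups of 3. The cells were sorted from small intestinal crypts of naive C57BL/6J mice, 8 to 12 weeks old, as Paneth cells (PC) or as the other crypt cells (non-PC). WT mice were compared with GRvillinKO mice (GRKO), in which the glucocorticoid receptor gene Nr3c1 is deleted by a Cre recombinase under the villin promoter. Vil1, a member of the set, is the gene of villin, so the promoter that drives the deletion belongs to a gene measured here.

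Microvilli are held up by a core of parallel actin filaments, which villin, espin and fimbrin bundle and which EPS8 caps at the tip. Ezrin and myosin-1A tie the core to the membrane around it. The protocadherins CDHR2 and CDHR5 join the tips of neighbouring microvilli through thread-like links, and harmonin (Ush1c), ANKS4B, CALML4 and the motor myosin-7B anchor these links from inside the cell. In the small intestine the dense brush border of microvilli is a feature of absorptive enterocytes on the villus, and cells of the crypt carry fewer and less ordered microvilli.

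The members are protein-coding genes on 9 mouse chromosomes, given here by their GRCm39 positions from GENCODE vM39. Vil1 lies at chr1:74448535-74475933 on the plus strand, Espn at chr4:152204788-152236887 on the minus strand, Eps8 at chr6:137454242-137648519 on the minus strand and Ezr at chr17:7005440-7050611 on the minus strand. Myo1a lies at chr10:127541039-127556809 and Myo15b at chr11:115749232-115783429, both on the plus strand. Cdhr2 lies at chr13:54849271-54884475 on the plus strand, and Cdhr5 at chr7:140848996-140856704 and Ush1c at chr7:45843621-45887987 are on the minus strand. Part of Vil1, 26.1% of its exonic bases, is shared with Usp37 on the opposite strand, and the sources used here do not name the strand that was counted. Usp37 itself was found at 12.1 to 37.6 CPM, and Vil1 at 281 CPM or more in every library. Cdhr2, Cdhr5 and Eps8 shared no exonic bases with another gene, and the other 6 shared at most 6.53% with any 1 gene, in each case on the opposite strand.

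The sequence around the start site is shown for 4 of the members. These are Vil1, whose promoter also defines the GRKO mice, the pair of protocadherins that make up the links, and Ezr, the member whose pattern was nearest to the mean of the set. The windows are from RefSeq (GRCm38.p6), run 5′ to 3′ from 250 bases before to 50 bases after the start, and capitals mark GC boxes (GGGCGG, either strand). The windows are chr1:74409134-74409433 for Vil1 (plus strand), chr13:54701213-54701512 for Cdhr2 (plus strand), chr7:141276737-141277036 for Cdhr5 (minus strand) and chr17:6782731-6783030 for Ezr (minus strand).
Vil1: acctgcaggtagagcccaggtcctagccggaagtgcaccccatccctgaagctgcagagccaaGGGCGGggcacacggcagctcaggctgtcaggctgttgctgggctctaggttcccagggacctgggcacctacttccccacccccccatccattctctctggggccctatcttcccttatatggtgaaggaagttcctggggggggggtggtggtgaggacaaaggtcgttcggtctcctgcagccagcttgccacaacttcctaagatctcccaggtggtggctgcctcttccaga
Cdhr2: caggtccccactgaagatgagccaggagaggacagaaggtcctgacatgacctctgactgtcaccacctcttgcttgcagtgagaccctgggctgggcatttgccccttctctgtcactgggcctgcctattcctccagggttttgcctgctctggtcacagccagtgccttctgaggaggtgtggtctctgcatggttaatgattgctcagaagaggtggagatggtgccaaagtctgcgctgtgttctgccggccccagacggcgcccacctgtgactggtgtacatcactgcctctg
Cdhr5: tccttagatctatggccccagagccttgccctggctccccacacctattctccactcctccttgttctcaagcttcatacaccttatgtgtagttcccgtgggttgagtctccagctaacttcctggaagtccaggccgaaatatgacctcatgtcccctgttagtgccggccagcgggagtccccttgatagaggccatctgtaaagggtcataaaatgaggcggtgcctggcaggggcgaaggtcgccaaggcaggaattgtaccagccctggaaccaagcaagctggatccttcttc
Ezr: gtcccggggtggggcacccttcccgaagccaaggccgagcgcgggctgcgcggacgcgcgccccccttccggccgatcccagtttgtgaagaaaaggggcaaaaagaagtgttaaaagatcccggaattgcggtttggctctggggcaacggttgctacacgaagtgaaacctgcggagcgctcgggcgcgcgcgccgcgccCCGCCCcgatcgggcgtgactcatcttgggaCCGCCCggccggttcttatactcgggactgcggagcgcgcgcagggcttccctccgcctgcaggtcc

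RefSeq windows were found for 8 members, with 10 windows in all since Espn has 3. A GC box was present in 5 of the 10 windows, where 35.7% of the 32851 windows of all genes hold one. In the windows printed, it begins 187 bases before the start of Vil1 and 48 and 17 bases before that of Ezr. The CDX motif (TTTATNG) was present in 1 of the 10, a window of Espn, against 10.9% of all windows. The HNF4 motif (CAAAGTCC, 1.42% of all windows), the TATA box (TATAAA, 13.6%) and the glucocorticoid response element (GNACA and TGTNC set 3 bases apart, 0.475%) were in none of the 10. These are matches of letters on either strand in a window of 300 bases, and say nothing about binding there or elsewhere.

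The libraries held 11126297 to 15910292 counts. Levels are given as CPM, counts scaled to the same total of gene counts in every library, and differences as log2 fold changes from edgeR's quasi-likelihood test in 1 fit over the 12 libraries. That fit uses TMM factors, which correct for differences in composition, such as a few very abundant Paneth cell genes that take a large share of the counts. They lay at 0.6559 to 0.8256 in Paneth libraries. In non-Paneth libraries they differed by genotype, with 1.197 to 1.22 in WT and 1.459 to 1.5 in GRKO. A fold change can therefore differ from the ratio of CPM. Nr3c1, the targeted gene, was found at 33.7, 33 and 41.1 CPM in WT and 5.28, 4.73 and 12.1 CPM in GRKO Paneth cells, and at 135, 151 and 160 CPM in WT and 29.2, 19.6 and 36.2 CPM in GRKO non-Paneth cells. Its log2 fold change in GRKO was −2.31 (standard error, SE, 0.319, adjusted p = 0.0331 by edgeR) in Paneth and −2.67 (SE 0.298, adjusted p = 6.67e-05 by edgeR) in non-Paneth cells. The Paneth markers (7 genes) summed to 345968 to 427911 CPM in Paneth and 438 to 1684 CPM in non-Paneth libraries. Genotypes follow the sample titles, because the genotype field of the records gives every Paneth library 1 genotype and every non-Paneth library the other. WT replicate 2 of both fractions carried Xist, unlike the other 10 libraries, and without these libraries the members called were the same in number in the comparisons that use WT cells. The labels do not say whether replicates are separate mice, so p-values measure the spread between these libraries only.

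Across all 4 groups, the order of levels was alike for most of the set. In CPM, the means of WT non-Paneth cells were highest for every member, those of GRKO non-Paneth cells came next, and those of the Paneth groups were lowest. After TMM scaling the means of Cdhr5 (440 against 342 CPM), Espn (64.8 against 45.9 CPM) and Eps8 (136 against 95.2 CPM) were higher in GRKO Paneth than in GRKO non-Paneth cells. Of these only Eps8 was without overlap of the libraries. In WT Paneth cells Eps8 had a mean of 97.9 CPM on that scale, and its libraries (63.6 to 128 CPM) overlapped those of GRKO non-Paneth cells (87.6 to 104 CPM). Summed over the members without that scaling, the level was 11447 ± 614 CPM (SD, n = 3) in WT non-Paneth, 4788 ± 264 in GRKO non-Paneth, 1888 ± 489 in GRKO Paneth and 1368 ± 110 in WT Paneth cells. In CPM the libraries of GRKO non-Paneth cells were below those of WT without overlap for every member, as for 16.3% of all genes tested. Those of WT and GRKO Paneth cells overlapped for Myo7b, Ush1c, Espn, Ezr and Eps8. For the other members GRKO was higher without overlap, as for 8.24% of all genes tested. After TMM scaling that held for Cdhr5 only.

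**Figure D1:**
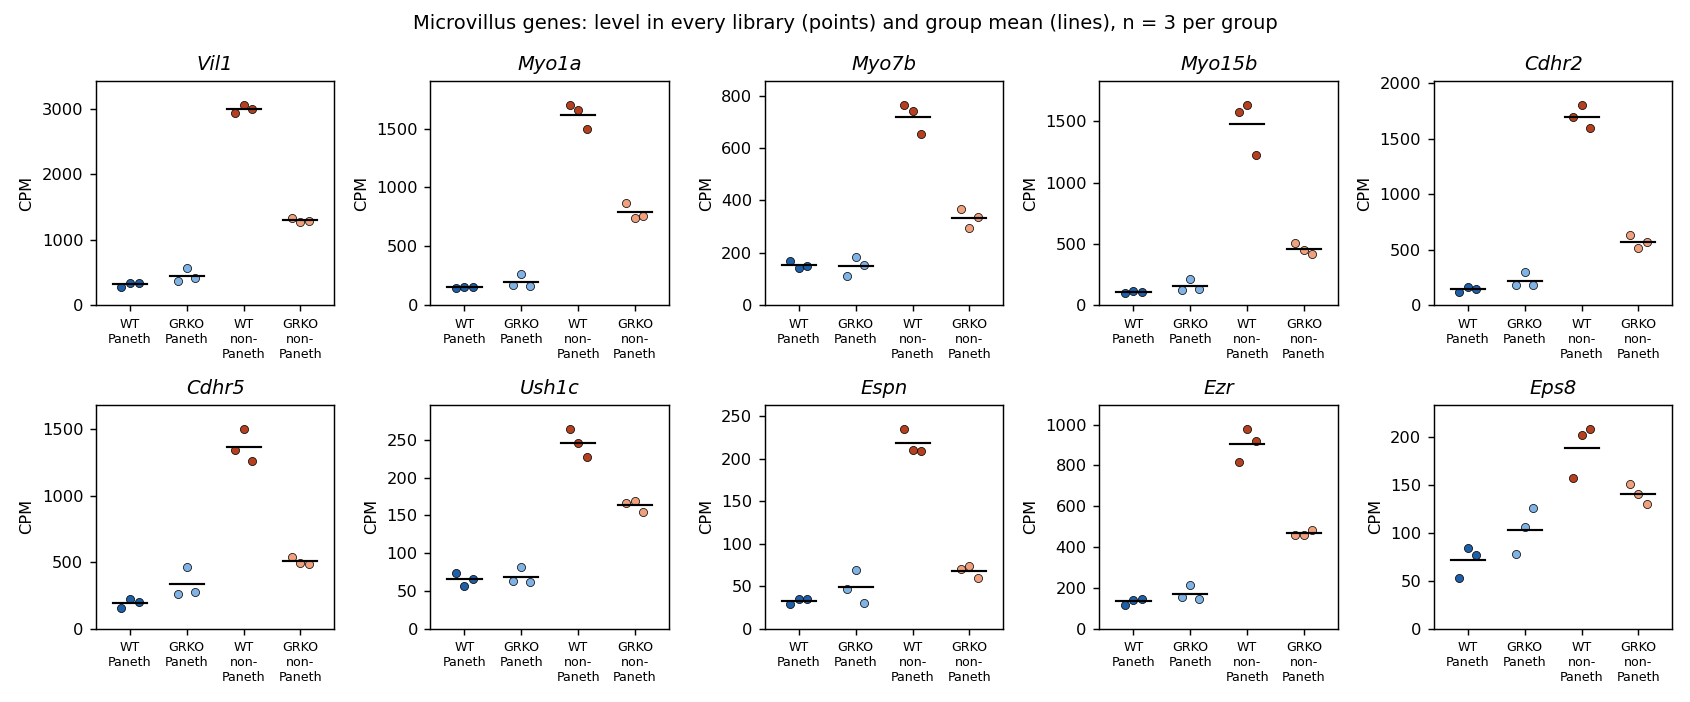
Each panel plots the level of 1 gene in CPM (vertical axis, from 0) for the 12 libraries by group (horizontal axis), with points for libraries and lines for the mean of 3. For each gene the 3 WT non-Paneth libraries sit above the 3 GRKO non-Paneth libraries, as for Vil1 with 2932 to 3059 against 1265 to 1333 CPM, and the Paneth libraries lie lowest, except that Espn overlaps between GRKO Paneth (30.4 to 69.4) and GRKO non-Paneth cells (59.7 to 73.6).

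Levels of different genes were compared as RPKM, the CPM per kilobase of exonic length. In WT non-Paneth cells Vil1 was highest with 618 ± 13.1 RPKM (SD, n = 3), followed by Cdhr5 with 499 ± 45.7 RPKM. Myo1a (436 ± 28.6 RPKM) and Cdhr2 (411 ± 24.7 RPKM) came next and overlapped. Myo15b with 150 and Ezr with 130 RPKM also overlapped, and Myo7b with 107, Ush1c with 37.5, Espn with 25.6 and Eps8 with 12.2 RPKM followed without overlap. The adhesion protein Cdhr5 and its partner Cdhr2 were thus among the 4 highest members, and the scaffold Ush1c was lower than either.

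The order in WT Paneth cells was much the same at lower levels. Cdhr5 with 71.2 ± 12.6 RPKM and Vil1 with 65.8 ± 6.97 RPKM were highest and overlapped, Myo1a had 40.5 and Cdhr2 34.4 RPKM, and Espn with 3.85 RPKM was lowest. Myo15b ranked 5 in WT non-Paneth and 7 in WT Paneth cells. The lower ranks depended on the length used. With the longest transcript, Ezr (215 RPKM) was above Myo15b (158 RPKM) in WT non-Paneth cells, Myo15b ranked 6 there and 9 in WT Paneth cells, and Eps8 remained last in WT non-Paneth cells and ranked 8 in WT Paneth cells.

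WT Paneth and WT non-Paneth cells were compared for their levels of the microvillus genes. All 10 members were lower in Paneth cells at an adjusted p under 0.05 by edgeR, where 26.7% of all genes tested were called lower and 24.0% higher. The median log2 fold change of the members was −2.06, against 0.01 over all genes tested. The CPM of the libraries did not overlap for any member, and 62.4% of all genes had that pattern in that direction, CPM being on a scale that is not corrected for composition.

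Among the genes of the actin core, Vil1, which bundles and severs actin filaments, was found at 281, 343 and 335 CPM in WT Paneth and 2932, 3059 and 3002 CPM in WT non-Paneth cells. All Paneth libraries were far below all non-Paneth libraries, with a log2 fold change of −2.51 (SE 0.167, adjusted p = 1.48e-08 by edgeR). Espn, which encodes the actin bundler espin, had 28.9, 34.5 and 35 CPM in WT Paneth and 235, 210 and 209 CPM in WT non-Paneth cells, a log2 fold change of −2.02. Eps8, which caps and bundles actin at the tip, was different in size. Its 52.5, 84 and 77.4 CPM in WT Paneth cells came nearest to the 157, 202 and 209 CPM of WT non-Paneth cells, and its log2 fold change of −0.68 (SE 0.209, adjusted p = 0.0142 by edgeR) was the smallest of the set. Without WT non-Paneth replicate 2 or replicate 3 it did not pass the threshold (adjusted p = 0.0684 and 0.0653 by edgeR).

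The genes that tie the core to the membrane moved like Vil1. Ezr, the gene of the linker ezrin, had 118, 139 and 147 CPM in WT Paneth and 818, 980 and 922 CPM in WT non-Paneth cells, a log2 fold change of −2.04. Myo1a, the gene of the brush border motor myosin-1A, had 146, 155 and 150 CPM against 1702, 1660 and 1501 CPM, a log2 fold change of −2.72. The WT Paneth libraries were close to each other for this gene, and their highest value was below every WT non-Paneth value.

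The genes of the links between microvilli did not move by equal amounts. Cdhr2, one of the 2 protocadherins, had 119, 162 and 145 CPM in WT Paneth and 1696, 1804 and 1600 CPM in WT non-Paneth cells, a log2 fold change of −2.86 (SE 0.212, adjusted p = 4.43e-08 by edgeR). Its partner Cdhr5 had 158, 226 and 203 CPM against 1342, 1505 and 1259 CPM, a log2 fold change of −2.08 (SE 0.210). In every WT Paneth library Cdhr5 had the higher count of the pair, and in every WT non-Paneth library Cdhr2 did. Ush1c, the gene of the scaffold harmonin, had 73.6, 56.3 and 66.3 CPM against 265, 246 and 228 CPM, with a log2 fold change of −1.22. Myo7b, the motor that places the links at the tips, had 168, 140 and 149 CPM against 765, 741 and 654 CPM, with a log2 fold change of −1.54. Myo15b, a myosin of the same wider class as the hair cell motor Myo15a, had the largest difference of the set. It was found at 99.1, 112 and 103 CPM in WT Paneth and 1574, 1634 and 1229 CPM in WT non-Paneth cells, a log2 fold change of −3.10 (SE 0.195, adjusted p = 9.51e-09 by edgeR).

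The level of enterocyte markers moved with these differences. The 9 markers summed to 656 to 1667 CPM in WT Paneth and 33651 to 34847 CPM in WT non-Paneth cells, all 9 were called lower in Paneth cells, and none of the 9 was without counts in a group. Their WT Paneth mean was 2.95% of the WT non-Paneth mean in CPM, where that of the members was 12%, and after TMM scaling the shares were 5.03% and 19.7%. The sum of the members divided by that of the enterocyte markers was 0.871 to 2.01 in WT Paneth and 0.316 to 0.358 in WT non-Paneth libraries. Other markers moved along this contrast too. Tuft markers summed to 127 to 277 CPM in WT Paneth and 3.26 to 9.32 CPM in WT non-Paneth cells, with 5 of 5 tested called higher, and all 4 stem markers were called higher (5012 to 6502 and 3990 to 5546 CPM). Enteroendocrine markers, at 78.2 to 141 and 204 to 620 CPM, had 3 of 5 called lower, and of the 6 goblet markers 2 were called higher and 2 lower. The part of these cell types in the difference was not tested. In bulk samples, fewer cells of a type and less RNA per cell cannot be told apart. Scaling by library totals alone moved the median of all genes to −0.684. It gave 1097 genes higher and 7892 lower, in place of 3133 and 3491. All 10 members were lower under that scaling too, from −1.41 for Eps8 to −3.82 for Myo15b on the log2 scale.

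**Figure D2:**
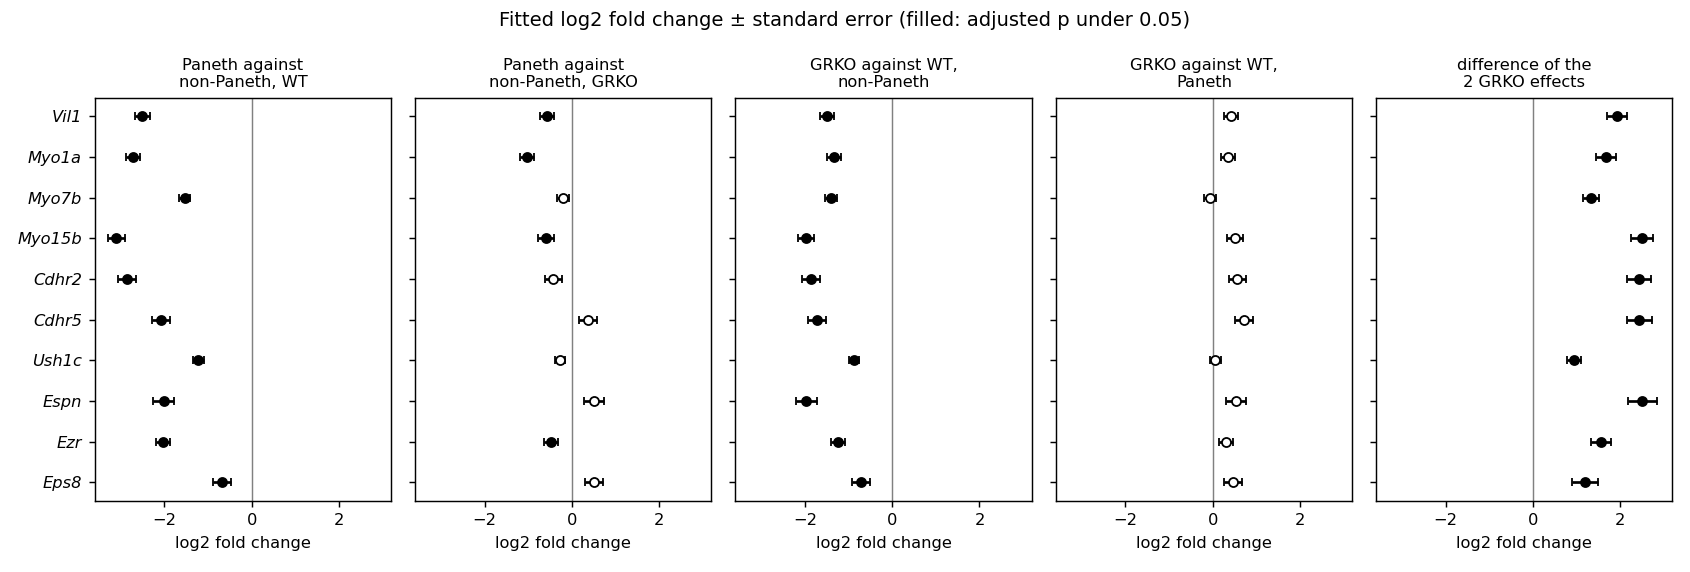
Each panel plots, for 1 comparison, the fitted log2 fold change (horizontal axis) of the 10 genes (vertical axis), with bars for the standard error and filled points for an adjusted p under 0.05 by edgeR. All 10 points are filled and to the left of 0 in the WT fraction and the non-Paneth genotype panels (Myo15b at −3.10 and −1.98), none is filled in the Paneth genotype panel, and all 10 are filled and to the right of 0 in the panel of the difference of effects.

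GRKO and WT mice were compared in non-Paneth cells to see whether the microvillus genes depend on the genotype there. All 10 members were lower in GRKO at an adjusted p under 0.05 by edgeR, where 19.8% of all genes tested were called lower and 17.5% higher. The median log2 fold change was −1.45, against 0.02 over all genes tested. The CPM of the libraries did not overlap for any of the 10, a pattern that 16.3% of all genes tested had in this direction. Scaling by library totals alone moved the median of all genes to 0.31. It gave 4348 genes higher and 1478 lower, in place of 2283 and 2586. The members were lower under that scaling too, from −0.43 for Eps8 to −1.70 for Myo15b. This comparison and that of the WT fractions share the 3 WT non-Paneth libraries.

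Vil1 was found at 1333, 1265 and 1283 CPM in GRKO non-Paneth cells, all far below the 2932 CPM of the lowest WT library. The log2 fold change was −1.5 (SE 0.161, adjusted p = 1.62e-05 by edgeR). Espn fell from 235, 210 and 209 CPM in WT to 70.4, 73.6 and 59.7 CPM in GRKO cells, a log2 fold change of −1.97 (SE 0.232). Eps8 again changed least. It had 151, 141 and 130 CPM in GRKO cells, just below the lowest WT value of 157 CPM, with a log2 fold change of −0.72 (SE 0.207, adjusted p = 0.0148 by edgeR), and under scaling by library totals alone it did not pass the threshold (adjusted p = 0.0811 by edgeR).

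Ezr was found at 460, 459 and 485 CPM and Myo1a at 865, 743 and 759 CPM in GRKO non-Paneth cells. Their log2 fold changes were −1.24 (SE 0.160) and −1.33 (SE 0.161), and every GRKO library was below every WT library. Both genes kept 0.516 (Ezr) and 0.487 (Myo1a) of their mean WT level in CPM.

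In the adhesion group, Cdhr2 had 631, 512 and 565 CPM and Cdhr5 540, 494 and 485 CPM in GRKO non-Paneth cells. The protocadherins fell by similar amounts on the log2 scale, −1.87 (SE 0.203, adjusted p = 1.93e-05 by edgeR) for Cdhr2 and −1.72 (SE 0.208, adjusted p = 3.86e-05 by edgeR) for Cdhr5. Ush1c fell less. Its libraries had 167, 169 and 154 CPM, and its log2 fold change was −0.88 (SE 0.114). Myo7b had 368, 296 and 336 CPM with a log2 fold change of −1.40. Myo15b had 504, 447 and 418 CPM and a log2 fold change of −1.98 (SE 0.186, adjusted p = 6.72e-06 by edgeR). Together with Espn at −1.97 (SE 0.232), Myo15b had the largest fall of the set.

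Markers of other cells moved along the same contrast. The 9 enterocyte markers summed to 8464 to 10644 CPM in GRKO against 33651 to 34847 CPM in WT non-Paneth cells, and the GRKO mean was 28.2% of the WT mean where that of the members was 41.8%. Of these markers 4 were called lower, Fabp1 by −2.46, Fabp2 by −2.31, Anpep by −1.90 and Mgam by −0.92 on the log2 scale. The members over the enterocyte markers gave a ratio of 0.439 to 0.543 in GRKO and 0.316 to 0.358 in WT non-Paneth libraries, which did not overlap. Tuft markers, at 3.26 to 9.32 CPM in WT, summed to 78.9 to 323 CPM in GRKO cells, with 5 of 5 tested called higher. Stem markers summed to 6294 to 8340 against 3990 to 5546 CPM, with 3 of 4 called higher, and proliferation markers to 1276 to 1389 against 608 to 695 CPM, with 3 of 3 called higher. Goblet markers (6402 to 13421 CPM in WT and 7633 to 11000 CPM in GRKO, 2 of 6 called lower), enteroendocrine markers (204 to 620 and 440 to 670 CPM, 1 of 5 called higher) and immune markers (1.3 to 5.63 and 0.509 to 9.37 CPM) overlapped in sum. Endothelial and stromal markers did not overlap, with 2.99 to 8.69 CPM in WT and 13.2 to 17.7 CPM in GRKO cells, and Vim, the only 1 of their 4 genes tested, was called higher (1.21, adjusted p = 0.00837 by edgeR). Of the 7 Paneth markers Ang4 was called higher (2.35, adjusted p = 0.00355 by edgeR), and the sums of the 7 were 438 to 1322 CPM in WT and 869 to 1684 CPM in GRKO cells. Red cell markers reached 0.0629 CPM. The part of these cell types in the fall of the members was not tested.

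**Figure D3:**
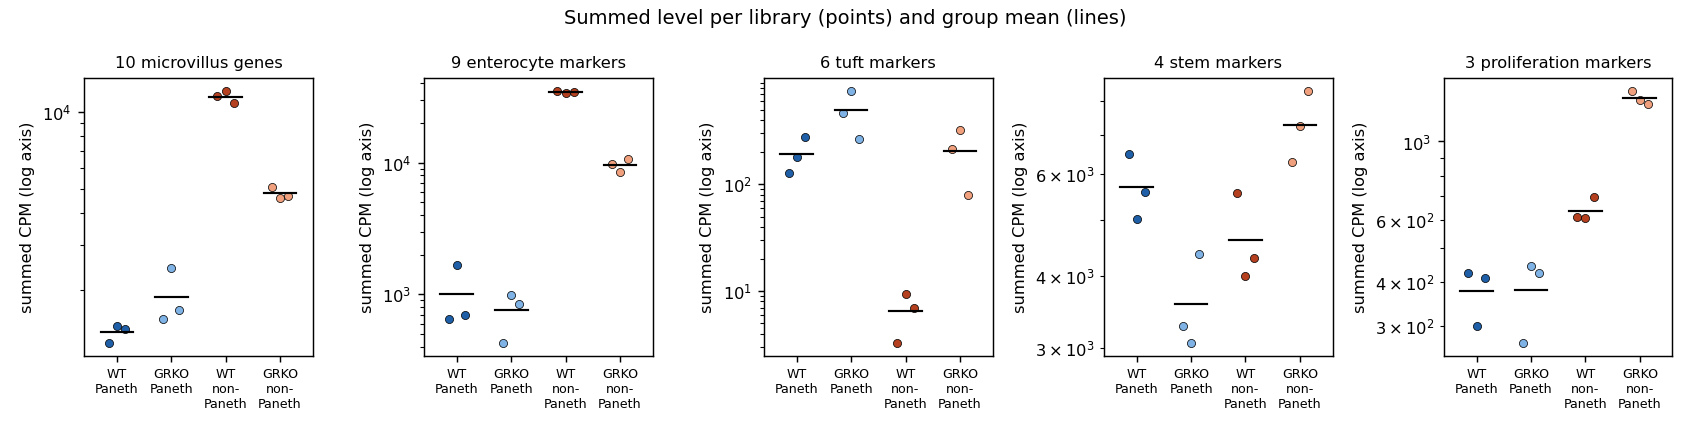
Each panel plots the summed CPM (vertical axis, logarithmic) of a gene list in the 12 libraries by group (horizontal axis), with points for libraries and lines for the mean of 3. The 10 microvillus genes and the 9 enterocyte markers are highest in WT non-Paneth cells and lower in GRKO non-Paneth cells (4598 to 5090 and 8464 to 10644 CPM), where the tuft, stem and proliferation markers are above WT.

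GRKO and WT mice were also compared in Paneth cells. None of the 10 members passed the threshold by edgeR, where 1.70% of all genes tested were called higher and 1.52% lower. Of the 10, 9 had a positive log2 fold change, from 0.07 for Ush1c to 0.72 for Cdhr5, and Myo7b had −0.07. At an unadjusted p under 0.05 there were 7 members and 26.7% of all genes tested, and DESeq2 called 3 members higher (Vil1, Cdhr2 and Cdhr5). The median of the members was 0.45, against 0.03 over all genes. Over all genes 222 were called higher and 198 lower by edgeR, 837 and 628 by DESeq2, and 0 and 2 with library totals alone.

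Cdhr5 had the largest value. Its GRKO Paneth libraries were at 264, 463 and 276 CPM and its WT Paneth libraries at 158, 226 and 203 CPM, with a log2 fold change of 0.72 (SE 0.204, adjusted p = 0.057 by edgeR). Cdhr2 had 177, 300 and 177 CPM in GRKO and 119, 162 and 145 CPM in WT Paneth cells, with a log2 fold change of 0.57 (SE 0.199, adjusted p = 0.0952 by edgeR). The libraries of the genotypes did not overlap for either of these, nor for Vil1 (360, 562 and 411 against 281, 343 and 335 CPM), Myo1a (167, 260 and 165 against 146, 155 and 150 CPM) and Myo15b (121, 211 and 133 against 99.1, 112 and 103 CPM). That made 5 of 10 members without overlap, a pattern of 8.24% of all genes tested in this direction, but after TMM scaling only Cdhr5 was without overlap.

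The spread among GRKO Paneth libraries followed replicate 2. It was the highest of the 3 for 9 of the 10 members, all but Eps8, and its members summed to 2447 CPM against 1542 and 1675 CPM in the others. The tuft markers were also highest in that library, with 750 CPM against 470 and 268 CPM, and the enterocyte markers were at 989 CPM against 428 and 850 CPM. Without it, the log2 fold change of Ush1c was −0.01, and without GRKO Paneth replicate 1 that of Myo7b was 0.04. The part of the tuft markers in these values was not tested.

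The remaining members showed smaller or more scattered values in Paneth cells. Ezr had 155, 212 and 145 CPM in GRKO and 118, 139 and 147 CPM in WT cells, and Espn had 46.6, 69.4 and 30.4 CPM against 28.9, 34.5 and 35 CPM. Eps8 had 77.8, 106 and 126 CPM against 52.5, 84 and 77.4 CPM. For these 3 the genotypes overlapped. Myo7b (110, 183 and 151 against 168, 140 and 149 CPM) and Ush1c (62.6, 82 and 62 against 73.6, 56.3 and 66.3 CPM), the motor and the scaffold of the adhesion complex, lay nearest to no difference, with SEs of 0.135 and 0.116 on the log2 scale.

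Whether the genotype acted alike in the cell fractions was tested as the interaction, the GRKO effect in Paneth minus that in non-Paneth cells. It was positive and called for all 10 members by edgeR, where 11.5% of all genes tested were called higher and 7.28% lower. The median was 1.81 over the members and −0.01 over all genes. Espn (2.51, SE 0.326, adjusted p = 0.000471 by edgeR), Myo15b (2.50, SE 0.259, adjusted p = 7.26e-05 by edgeR), Cdhr5 (2.44) and Cdhr2 (2.43) had the largest values and Ush1c (0.95, SE 0.162, adjusted p = 0.00172 by edgeR) and Eps8 (1.19, SE 0.294, adjusted p = 0.0136 by edgeR) the smallest. The interaction uses the same libraries as the other comparisons, so it gives their difference and no further evidence. With library totals alone the median of the interaction over all genes moved to −0.28. There, 752 genes were called higher and 1836 lower, in place of 1496 and 950. Each member was still above 0, from 0.667 for Ush1c to 2.257 for Espn and Myo15b.

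Within the GRKO mice, Paneth and non-Paneth cells differed less than within the WT mice. By edgeR 4 members were lower in Paneth cells and none was higher, where 21.2% of all genes tested were called lower and 18.0% higher. The members called were Myo1a with −1.03 (SE 0.160, adjusted p = 0.00012 by edgeR), Myo15b with −0.60, Vil1 with −0.58 and Ezr with −0.48 on the log2 scale. Cdhr2 had −0.42 (adjusted p = 0.103 by edgeR), Ush1c −0.27 and Myo7b −0.21, and Cdhr5 (0.36), Espn (0.50) and Eps8 (0.51) had positive values that did not pass either. At an unadjusted p under 0.05 by edgeR there were 8 members and 47.3% of all genes tested. Of these members Espn and Eps8 were higher, and Cdhr2 and Ush1c were lower beside the 4 called. DESeq2 called Eps8 higher, where it called 2740 genes higher and 2441 lower. In CPM, 9 of the 10 were lower in Paneth cells without overlap, as were 78.0% of all genes tested, and Espn overlapped. After TMM scaling 5 were lower without overlap (Vil1, Myo1a, Myo15b, Ush1c and Ezr), Eps8 was higher without overlap, and the other 4 overlapped.

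This comparison depended most on the scaling. With library totals alone the median of all genes moved to −1.053, and 816 genes were called higher and 9968 lower in place of 2344 and 2773. All 10 members were called lower, and Cdhr5, Espn and Eps8 turned to −0.60, −0.48 and −0.45. Set against the median gene under that scaling, these 3 still lay above it, and the other 7 members lay below it, from −1.168 for Myo7b to −1.997 for Myo1a. Without GRKO non-Paneth replicate 1, only Myo1a remained called lower and Eps8 was called higher. There were 2 members called lower without GRKO Paneth replicate 3, when Espn was called higher, and also 2 without GRKO non-Paneth replicate 2, and 6 without GRKO Paneth replicate 2. The members of the GRKO Paneth cells summed to 39.4% of the GRKO non-Paneth mean in CPM and to 76.9% after TMM scaling, and the enterocyte markers to 7.83% and 15%.

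Ratios of the counts of 2 members within a library do not depend on how libraries are scaled. Cdhr2 over Cdhr5, the protocadherins of the links, was 0.713 to 0.755 in WT Paneth, 0.64 to 0.671 in GRKO Paneth, 1.2 to 1.27 in WT non-Paneth and 1.04 to 1.17 in GRKO non-Paneth libraries. No 2 groups overlapped, and the gap between the fractions was wider than that between the genotypes. Exact permutation tests of 3 against 3 libraries cannot give a p below 0.1, so these ratios are given as descriptions.

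The scaffold Ush1c changed its ratio to both protocadherins. Cdhr2 over Ush1c was 6.41 to 7.34 in WT non-Paneth and 3.03 to 3.78 in GRKO non-Paneth libraries, and 1.62 to 2.89 in WT Paneth and 2.83 to 3.65 in GRKO Paneth libraries. Cdhr5 over Ush1c was 5.07 to 6.12 in WT non-Paneth and 2.92 to 3.23 in GRKO non-Paneth libraries, and 4.22 to 5.64 in GRKO Paneth libraries, above the 2.14 to 4.01 of WT Paneth cells. Myo7b over Ush1c, the motor over the scaffold, was 2.87 to 3.01 in WT non-Paneth and 1.75 to 2.49 in the other 3 groups. For each of these ratios WT non-Paneth cells were apart from GRKO non-Paneth cells.

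In the actin core, Vil1 over Eps8 was 14.3 to 18.7 in WT non-Paneth, 8.8 to 9.91 in GRKO non-Paneth, 4.08 to 5.34 in WT Paneth and 3.27 to 5.31 in GRKO Paneth libraries. The groups overlapped only between the genotypes of Paneth cells. Vil1 over Espn went the other way in GRKO non-Paneth cells, with 17.2 to 21.5 against 12.5 to 14.6 in WT non-Paneth cells. Vil1 over Ezr, core bundler over membrane linker, varied least of the ratios given here, with 2.28 to 2.84 in Paneth and 2.65 to 3.59 in non-Paneth libraries. Of the motors, Myo1a over Myo7b was 0.871 to 1.11 in WT Paneth and 1.09 to 1.51 in GRKO Paneth libraries, which overlapped, and 2.23 to 2.29 in WT and 2.26 to 2.51 in GRKO non-Paneth libraries, which overlapped too.

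**Figure D4:**
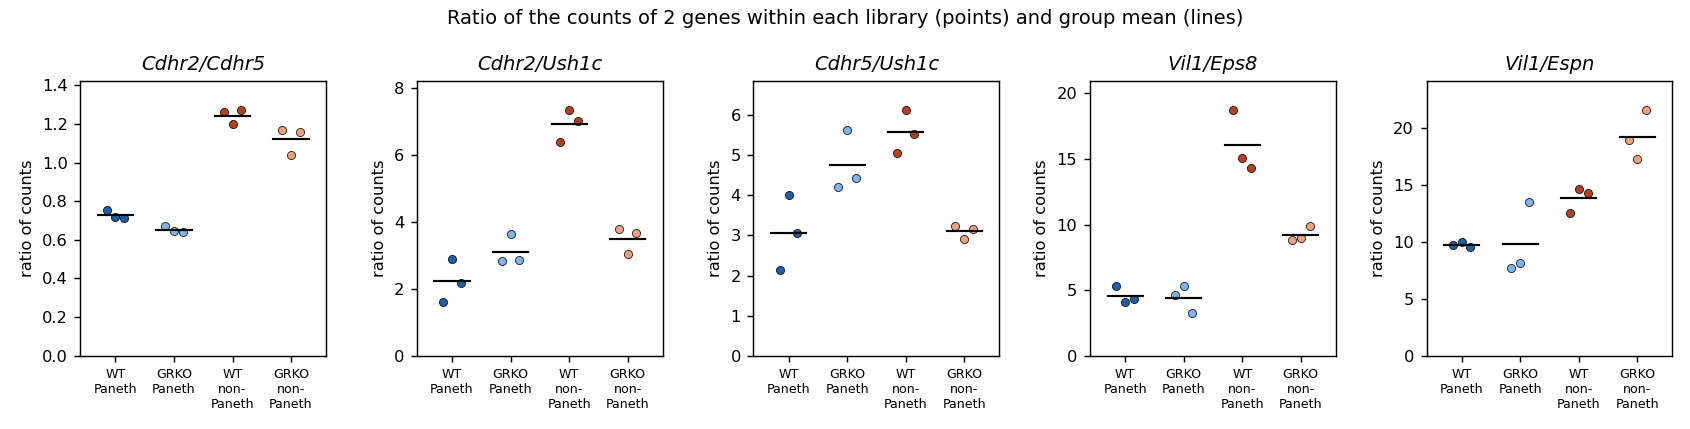
Each panel plots the ratio of the counts of 2 genes within a library (vertical axis, from 0) by group (horizontal axis), with points for libraries and lines for the mean of 3. Cdhr2 over Cdhr5 is below 1 in all Paneth and above 1 in all non-Paneth libraries, and Vil1 over Eps8 falls from 14.3 to 18.7 in WT non-Paneth to 8.8 to 9.91 in GRKO non-Paneth cells.

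A list of 41 other genes of the microvillus and the terminal web beneath it was read beside the members, and 39 of them were tested. In WT Paneth against WT non-Paneth cells 29 were called lower and 5 higher, against 26.7% and 24.0% of all genes tested, with a median log2 fold change of −1.01. The PDZ scaffold Pdzk1 (−5.70), the keratin Krt20 (−5.09), Plekhg6, which binds ezrin (−4.46), and the adhesion protein Tmigd1 (−4.16) were lowest. The keratin Krt18 rose by 1.31 on the log2 scale. Nherf2 was called higher too (4.49), at 8.36 to 9.73 CPM in WT Paneth cells, below the 10 CPM needed for naming. In GRKO against WT non-Paneth cells 20 were called lower and 3 higher, against 19.8% and 17.5% of all genes, with a median of −0.62. Pdzk1 (−2.42), the ezrin kinase Stk10 (−2.30), Plekhg6 (−2.06) and Krt20 (−1.94) led the fall, and the actin bundler Pls3 rose by 0.96. Of the partners of the adhesion complex, singled out after their values were seen, Anks4b (−1.12) and Calml4 (−1.06) were among the 20.

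The same list gave few calls by genotype in Paneth cells. Myo1d, a myosin related to Myo1a, was the only 1 of the 39 called (0.62, adjusted p = 0.0448 by edgeR), against 1.70% higher and 1.52% lower of all genes, and the median was 0.18. The interaction was called higher for 19 and lower for 1 of the 39, against 11.5% and 7.28% of all genes, with Plekhg6 (2.51), the actin nucleator Cobl (2.10), Stk10 (2.04) and the bundler Pls1 (1.79) above and Pls3 (−0.98) below. In GRKO Paneth against GRKO non-Paneth cells 19 were called lower and 4 higher, against 21.2% and 18.0% of all genes. Pdzk1 (−5.06), Krt20 (−3.49), Tmigd1 (−3.06) and Plekhg6 (−1.95) were among the former. Those called higher were the PDZ scaffold Nherf2 (3.84), Krt18 (1.36), the actin monomer binder Twf2 (0.79) and Lima1 (0.52), of which Krt18 and Twf2 overlapped in CPM and are given to complete the count. The CPM of Lima1 ran the other way without overlap, with 257 to 363 in GRKO Paneth and 368 to 447 in GRKO non-Paneth cells.

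Of 22 relatives of the members by sequence family 15 were tested. In WT Paneth against WT non-Paneth cells 6 were called lower and 4 higher, against 26.7% and 24.0% of all genes tested, with the actin-severing Scin (−3.26) and Gsn (−2.11), the myosin Myo7a (−2.99) and Eps8l2 (−2.34) below and Avil (5.77) above. Avil, a relative of Vil1 used by tuft cells, also rose by 4.86 in GRKO non-Paneth cells, along with the tuft markers there. In that comparison Eps8l2 (−1.71), Gsn (−1.29), Myo7a (−0.89) and Eps8l3 (−0.85) were the 4 called lower, against 19.8% of all genes. In Paneth cells by genotype 3 were called higher, against 1.70% of all genes, of which Myo1c (0.67) met the rule for naming. The interaction was called higher for 6 and lower for 1, against 11.5% and 7.28% of all genes, with Eps8l2 (1.93), Scin (1.76), Gsn (1.74) and Myo7a (1.61) above and Avil (−3.51) below. Between the fractions of GRKO mice 7 were called higher and 3 lower, against 18.0% and 21.2% of all genes, the latter being Scin (−1.5), Myo7a (−1.38) and Eps8l3 (−0.50).

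**Figure D5:**
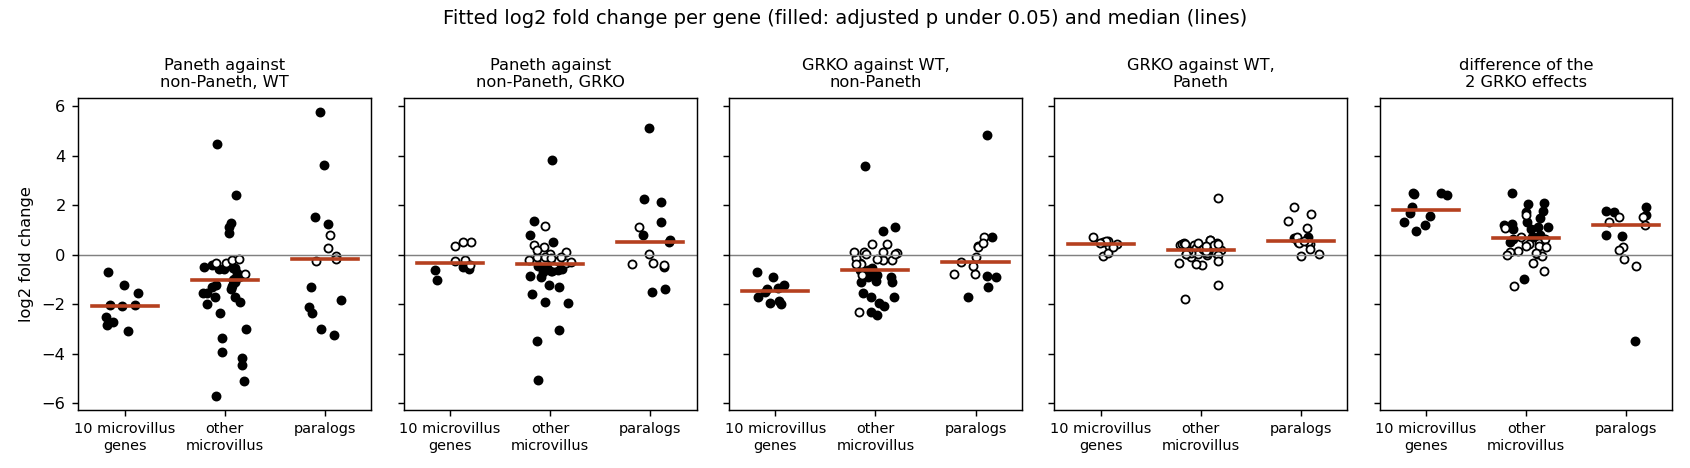
Each panel plots the fitted log2 fold change (vertical axis) of every tested gene in 1 comparison for the 10 microvillus genes, 39 other microvillus genes and 15 paralogs (horizontal axis), with filled points for an adjusted p under 0.05 by edgeR and lines for the median. In GRKO against WT non-Paneth cells the medians are −1.45, −0.62 and −0.30 in that order, and Avil stands apart at 4.86.

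The genes whose pattern was most like that of the members were found by the root mean square difference, over the 12 libraries, between the centred log2(CPM + 1) of a gene and the mean of the members, among 9652 genes. Of the members, Ezr was nearest with 0.13 and Eps8 farthest with 0.634, at rank 1875. The 10 nearest other genes were 1810055G02Rik (0.141), Slc22a18 (0.146), Arhgef2 (0.152), Btnl5-ps (0.153), Acad11 (0.156), Cdr2 (0.163), Lap3 (0.174), Fbln1 (0.174), Cdk18 (0.176) and Gpd1 (0.178). Lap3, for example, had 532 ± 45 CPM (SD, n = 3) in WT non-Paneth, 244 ± 44.4 in GRKO non-Paneth, 106 ± 17.6 in GRKO Paneth and 80.8 ± 17.7 in WT Paneth cells. The mean of the members enters this measure, so a member is helped by its own share in it.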

How the data were processed

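Bulk RNA-seq of sorted crypt cells was measured in 12 libraries. The authors trimmed single-end TruSeq stranded reads with Trimmomatic 0.39, aligned them with STAR 2.7.10a to mm39 and deposited raw counts per Ensembl gene, without normalization. Names were taken from GENCODE vM39, which named 98.8% of 55414 rows and differs from the release that the study's methods name. The sources used here name neither the strand that was counted nor how non-Paneth cells were gated. The sample records name the Aurum kit for the RNA, and the study's methods name another. The Paneth gate took CD24+ cKIT+ events of medium to high side scatter without CD31, CD45 and TER119.

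The main test was edgeR 4.0.16, run in R 4.3.3 on the counts (filterByExpr, TMM, glmQLFit with robust estimates, glmQLFTest), with 1 mean per group over 12 libraries and Benjamini-Hochberg adjustment over 13057 genes at 5%. The alternatives were DESeq2 1.42.0, RLE factors, library totals, Lyz1 and Defa genes left out of the scaling, other filters, a fit on the compared groups, a block on the replicate number, a length trend removed, 1% in place of 5%, and libraries left out. Tables were made with Python 3.11.15, pandas 2.3.3 and numpy 2.4.6. RPKM used the union of exons.

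The members and lists were chosen with earlier results of these data known. Named were the members, Nr3c1, the 10 genes most like them, and per list and comparison up to 4 genes in each direction with the largest fold change, an adjusted p under 0.05, at least 10 CPM in a group and no overlap of CPM. A gene that this rule would name is not reported here. The main test used no pairs. In the alternative with a block, same-numbered libraries of the fractions were read as pairs in WT and in GRKO mice. For the comparisons between genotypes that block was the replicate number itself, across WT and GRKO libraries. The deviations of same-numbered WT Paneth and non-Paneth libraries correlated by 0.349, 0.229 and 0.238. No 2 libraries of a group were alike within sampling noise (chi-square per degree of freedom 13.2 to 50.4).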

Additional observations from a re-analysis of the deposited data

Results flagged for a closer look

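The effect of the genotype differed between Paneth and non-Paneth cells for each of the 10 members. The difference was tested as the interaction in edgeR, with an adjusted p under 0.05 over 13057 genes. Of all genes tested, 11.5% were called higher and 7.28% lower in it. On the log2 scale it was 2.51 for Espn, 2.50 for Myo15b, 2.44 for Cdhr5, 2.43 for Cdhr2, 1.93 for Vil1, 1.68 for Myo1a, 1.56 for Ezr, 1.33 for Myo7b, 1.19 for Eps8 and 0.946 for Ush1c. In each case the CPM of the 3 GRKO libraries was below that of the 3 WT libraries in non-Paneth cells, as for 16.3% of all genes tested. None of the members was called in Paneth cells, where only 1.70% of all genes tested were called higher and 1.52% lower. The 10 values share all 12 libraries and are not independent of each other.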

How the results depend on the processing

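The members called lower in WT Paneth cells, lower in GRKO non-Paneth cells and higher in the interaction numbered 9 to 10, 10 and 10 when libraries were left out singly. For single members, 167 of 170, 168 of 170 and 219 of 220 alternative values in these comparisons kept their direction and side of the threshold, and those that did not were all for Eps8, the 1% level included. The replicate block, read as a pairing in WT mice, changed no call there. For same-numbered libraries of GRKO mice, which the block also read as pairs, the correlations were 0.0129, 0.262 and 0.465. Whether these are pairs was not settled. Between genotypes, where the block was the replicate number, the correlations lay at −0.098 to 0.166.

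Between the GRKO fractions, the members called lower (4) became 10 with library totals and 2 at 1%, and 1 to 6 without single libraries. Members called higher (0) became 1 with DESeq2, RLE factors, only the groups compared or the length trend removed, 2 with no filter, at least 10 counts or the replicate block, and 0 to 1 without single libraries. Reversed to negative with library totals were Cdhr5 (−0.598), Espn (−0.476) and Eps8 (−0.450). For GRKO against WT Paneth cells the members called higher (0) became 3 with DESeq2, 5 with no filter, 1 with the replicate block and 0 to 1 without single libraries. With single libraries left out Myo7b lay between −0.181 and 0.036 (without GRKO Paneth replicate 1) and Ush1c between −0.010 (without GRKO Paneth replicate 2) and 0.164. There, all genes called numbered 222 higher and 198 lower, against 837 and 628 with DESeq2, 1037 and 743 with no filter, 559 and 418 with the block, 77 and 55 with the length trend removed, 0 and 2 with library totals, 0 and 0 with only the groups compared or at 1%, and 1 and 0 without the WT libraries numbered 2. Leaving out single libraries gave 0 to 928 higher and 0 to 690 lower.

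The other microvillus genes called higher in GRKO Paneth cells (1) became 5 with DESeq2, 4 with no filter, 3 with the block, 0 with library totals, only the groups compared, the length trend removed, the WT libraries numbered 2 left out or 1%, and 0 to 4 without single libraries, and those called lower (0) became 2 with no filter and 0 to 1. Between the GRKO fractions they became 35 lower (19) and 1 higher (4) with library totals, between the WT fractions 2 higher (5) with library totals, and in GRKO non-Paneth cells 5 higher (3) with library totals or no filter. With TMM-scaled CPM the summed level was 1858 in WT Paneth, 2490 in GRKO Paneth, 9450 in WT non-Paneth and 3239 in GRKO non-Paneth cells. With the longest transcript as the length, the median RPKM was 27.43, 31.83, 187 and 81.22 in the same order. The cause of these changes was not tested. With 3 libraries a group, the standard errors of the members between Paneth genotypes were 0.116 to 0.232 on the log2 scale.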
